A study of Mus musculus with 51 samples.

Results

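Pgk2, Pdha2, Rpl10l, Rbmxl2, Cstf2t and Cetn1 are autosomal retrocopies, that is, genes that arose when the mRNA of another gene was copied back into the genome. The parent of each lies on the X chromosome (Pgk1, Pdha1, Rpl10, Rbmx, Cstf2 and Cetn2, in the same order). The 6 retrocopies were taken by name as genes that stand in for X-linked parents in meiosis, and they are 6 of the 20698 autosomal protein-coding genes that were examined. The annotation bears the label out: each has a protein-coding transcript of 1 exon, although Cetn1 also has a coding transcript with 2 exons, and each parent is on chromosome X.

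When spermatocytes enter pachynema, the X and Y chromosomes fail to pair along most of their length, are packed into the sex body and are transcriptionally silenced, a process called meiotic sex chromosome inactivation. Products of X-linked housekeeping genes that the cell still needs then have to come from elsewhere, and autosomal retrocopies that are used in the testis are the textbook source. Trimethylation of lysine 4 of histone H3 (H3K4me3) marks the start sites of active or poised genes, as does acetylation of lysine 9 (H3K9ac). A peak of either mark at a start site is a mark on chromatin and not a measure of RNA.

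The data were peak lists from chromatin immunoprecipitation and sequencing (ChIP-Seq) of nuclei from the testes of adult wild-type male C57Bl/6J mice. Nuclei with 4C DNA content were sorted by intra-nuclear SCP3, STRA8, H1t and SCP1 into 5 populations: leptonema, zygonema, early and late pachynema, and diplonema. The sort gives enriched rather than pure stages. Of the 20 lists, 10 were of H3K4me3 (EpiCypher antibody, experiments 1 and 2 of each stage), 5 were made with an Abcam antibody named H3K4me2/3 (experiment 2), and 5 were of H3K9ac (experiment 1). All groups shared strain, genotype and sex, and no group was treated.

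Each list holds the coordinates of the peaks that the authors called in 1 library, without a height. A retrocopy was counted as called when a peak overlapped the 500 bp on either side of its annotated 5′ end by at least 1 bp. The lists held between 4883 and 15699 H3K4me3 peaks, between 17561 and 30943 H3K4me2/3 peaks and between 516 and 16003 H3K9ac peaks. Sequencing depth is unknown from these lists. The H3K9ac lists of late pachynema (1727 peaks) and diplonema (516 peaks) stood apart as the shortest. The H3K4me3 lists of experiment 2 were longer than those of experiment 1 in leptonema (13095 against 9528 peaks), late pachynema (9124 against 5189) and diplonema (12071 against 6645). They were shorter in zygonema (11314 against 15699) and early pachynema (4883 against 6647). The lists cover chromosomes 1 to 19, so the X-linked parents were not analysed here.

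Markers of the sorted cells and of other testis cells were looked up in the same way. Sycp3, which encodes the SCP3 protein of the sort, had a peak in all 10 H3K4me3 lists, and Stra8 had one in both leptonema lists and in no other H3K4me3 list. Sycp1, the gene of SCP1, was called in 4 of the 4 leptonema and zygonema H3K4me3 lists and in 4 of the 6 later ones. Hist1h1t, the gene of H1t, was called in 2 of the 4 leptonema and zygonema lists and in 0 of the 6 later ones. With the Abcam antibody, Stra8 had peaks in leptonema and zygonema (2234 and 1593 bp). Hist1h1t had Abcam peaks in zygonema and early pachynema (1412 and 1319 bp). The spermatid genes Prm1, Prm2, Tnp1 and Acrv1 had no peak in any of the 20 lists. Of the somatic markers, the Sertoli cell gene Sox9 was called in leptonema of experiment 2 with both antibodies (1391 bp and 2042 bp wide), the Leydig cell gene Insl3 was called in diplonema of experiment 2 with both (288 bp and 199 bp), and Amh, Star, Cyp17a1 and Hsd3b1 were called in none. Among spermatogonial markers, Kit had a peak in 1 H3K4me3 and 4 H3K4me2/3 lists, Zbtb16 in 4 H3K4me2/3 lists and 1 H3K9ac list, and Gfra1 in 3 and 1.

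Some sequences at the start sites are shown first. The retrocopies differed in when they carried a peak and in how many CpG dinucleotides lie upstream, and whether these go together was not tested. The sequences shown are Pgk2, called late, Rbmxl2, called in every H3K4me3 list, and both the upstream region of Pdha2 and the part of its coding sequence on which its peaks lay. They are from RefSeq, build GRCm38.p6 (mm10), written 5′ to 3′ in the direction of transcription, with each CpG in capitals. The Pgk2 stretch is chr17:40208641-40208859 on the minus strand, the Rbmxl2 stretch is chr7:107209195-107209444 on the plus strand, the upstream Pdha2 stretch is chr3:141212356-141212605 on the minus strand, and the coding Pdha2 stretch is chr3:141211402-141211701 on the minus strand, 654 to 953 bp downstream of the 5′ end.
Pgk2 upstream: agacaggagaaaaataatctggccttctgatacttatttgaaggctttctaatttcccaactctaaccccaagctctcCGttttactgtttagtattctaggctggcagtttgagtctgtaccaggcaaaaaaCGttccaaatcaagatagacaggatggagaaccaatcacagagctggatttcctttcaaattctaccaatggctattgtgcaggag
Rbmxl2 upstream: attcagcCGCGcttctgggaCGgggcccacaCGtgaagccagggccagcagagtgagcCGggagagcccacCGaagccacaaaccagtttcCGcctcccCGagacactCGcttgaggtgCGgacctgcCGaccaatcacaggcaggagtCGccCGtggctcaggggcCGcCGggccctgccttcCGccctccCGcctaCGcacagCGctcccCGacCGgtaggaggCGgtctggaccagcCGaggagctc
Pdha2 upstream: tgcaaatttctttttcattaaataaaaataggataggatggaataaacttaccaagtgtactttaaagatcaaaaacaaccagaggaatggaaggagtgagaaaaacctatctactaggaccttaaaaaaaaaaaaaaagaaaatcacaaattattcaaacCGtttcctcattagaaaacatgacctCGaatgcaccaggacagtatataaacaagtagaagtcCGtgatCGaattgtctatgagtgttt
Pdha2 coding: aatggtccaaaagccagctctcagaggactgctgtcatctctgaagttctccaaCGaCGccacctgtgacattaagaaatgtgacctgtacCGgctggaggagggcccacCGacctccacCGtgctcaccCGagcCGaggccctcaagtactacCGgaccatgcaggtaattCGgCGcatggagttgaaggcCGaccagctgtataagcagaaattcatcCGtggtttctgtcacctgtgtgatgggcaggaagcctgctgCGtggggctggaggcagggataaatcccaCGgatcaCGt

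In H3K4me3, the retrocopies fell into those called at every stage, those called late and Pdha2, whose peak lay downstream of its 5′ end. Rpl10l, Rbmxl2 and Cstf2t had a peak in all 10 lists. Pgk2 and Cetn1 had none in the 4 lists of leptonema and zygonema. Both were called in both diplonema lists, and Pdha2 was called in 1 leptonema and 1 diplonema list only. The number of retrocopies called was 3 and 4 of 6 in leptonema (experiments 1 and 2), where 38.7% and 46.3% of all genes were called. It was 3 in each zygonema list (36.2% and 35.3% of genes), 4 and 3 in early pachynema (33.6% and 25.2%), 4 and 5 in late pachynema (26.4% and 39.7%), and 5 and 6 in diplonema (28.7% and 46% of genes). The largest number was thus reached in diplonema of experiment 2, which was also the longer list of that stage.

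**Figure D1:**
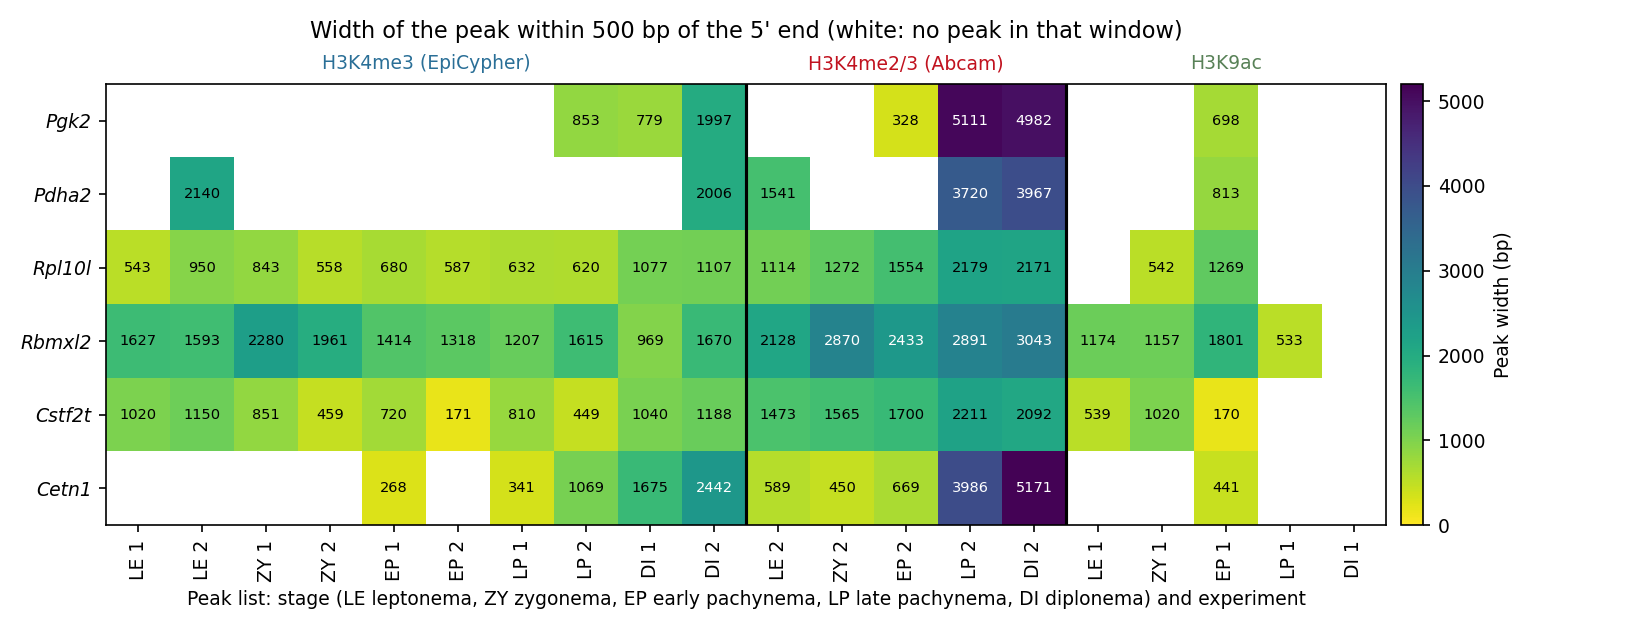
Peak width in bp (number and colour) at each retrocopy (rows) in each of the 20 lists (columns, by antibody, stage and experiment), with white where no peak lay within 500 bp of the 5′ end. Pgk2 and Cetn1 are empty in leptonema and zygonema of H3K4me3 and reach 5111 bp and 5171 bp with the Abcam antibody, while Rpl10l, Rbmxl2 and Cstf2t are filled throughout the H3K4 lists.

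Cetn1 encodes a centrin, a calcium-binding protein of centrioles and of the base of the sperm tail. Its locus is chr18:9615524-9619478, on the minus strand. H3K4me3 peaks at Cetn1 were absent in leptonema and zygonema, 268 bp wide in early pachynema of experiment 1 and absent there in experiment 2, 341 bp and 1069 bp in late pachynema, and 1675 bp and 2442 bp in diplonema. The called lists were thus all from pachynema or diplonema, and diplonema was the widest in both experiments, at 2058.5 ± 542 bp (SD, n = 2). With the Abcam antibody Cetn1 already had a peak in leptonema (589 bp), zygonema (450 bp) and early pachynema (669 bp), and peaks of 3986 bp in late pachynema and 5171 bp in diplonema. In diplonema this peak covered 97.1% of the gene, and it ranked 228 by width among the 11153 genes with a peak within 1000 bp in that list.

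Pgk2 encodes the phosphoglycerate kinase of spermatogenic cells, an enzyme of the glycolysis that feeds sperm motility. Its single exon lies at chr17:40207015-40208640, on the minus strand. H3K4me3 was called at Pgk2 in late pachynema of experiment 2 (853 bp) and in diplonema of experiments 1 and 2 (779 bp and 1997 bp), and in none of the other 7 lists, late pachynema of experiment 1, the shorter list of that stage, included. The mean diplonema width was 1388 ± 861 bp (SD, n = 2), so the experiments disagreed on it by more than they did for Cetn1. With the Abcam antibody there was no peak in leptonema or zygonema, a peak of 328 bp in early pachynema, and peaks of 5111 bp and 4982 bp in late pachynema and diplonema that covered the whole gene. The peak of 328 bp lay at percentile 4.75 by width among genes with a peak within 1000 bp in its list, whereas the late pachynema peak ranked 164 of 11634 such genes.

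A call share of 0 of 4 early against 3 or 5 of 6 later lists is what the test by stage compared. For Cetn1 the share was 83.3 percentage points higher in the later lists (exact permutation test, two-sided, with all 210 splits of the lists, p = 0.0476, adjusted p = 0.621 over 7479 genes). For Pgk2 it was 50.0 points higher (two-sided exact permutation test, p = 0.2, adjusted p = 0.675). Neither passed an adjusted threshold of 0.05, and no gene did. The smallest p that 4 lists against 6 allow is 0.00476 (two-sided exact permutation test), and the smallest adjusted p was 0.249. At an unadjusted p under 0.05 there were 530 genes, of which 117 (1.56% of those tested) were called more often in the later stages. Absence from all 4 early lists with a peak in 1 or more later lists was found for 2 of the 6 retrocopies and for 6.02% of all genes, and absence from the early lists with a peak in both diplonema lists for the same 2 retrocopies and 2.21% of all genes.

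Pdha2 encodes the testis form of the E1 alpha subunit of pyruvate dehydrogenase, the enzyme that links glycolysis to the citric acid cycle. It is a gene without introns at chr3:141210004-141212355, on the minus strand, with coding sequence from 610 to 1782 bp downstream of the annotated 5′ end. In the window of 500 bp, H3K4me3 was called in leptonema of experiment 2 (2140 bp) and diplonema of experiment 2 (2006 bp) only. Within 1000 bp, Pdha2 had a peak in all 10 H3K4me3 lists and all 5 H3K4me2/3 lists. In the other 8 H3K4me3 lists the peak began between 532 and 618 bp downstream of the 5′ end, just beyond the window, and was between 407 and 745 bp wide. All 15 H3K4 peaks had in common the stretch from 618 to 990 bp downstream, which is coding sequence.

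Pdha2 thus had an H3K4 peak at every stage, and its call within 500 bp turned on the position and width of that peak. Of all genes, 7 (0.0338%) had a peak in at most 2 of the 10 H3K4me3 lists within 500 bp and in all 10 within 1000 bp. By stage, the H3K4me3 peak within 1000 bp measured 611 and 2140 bp in leptonema, 668 and 407 bp in zygonema, 583 and 544 bp in early pachynema, 506 and 562 bp in late pachynema, and 745 and 2006 bp in diplonema. The wide peaks were those of experiment 2 in leptonema and diplonema, in each case the longer H3K4me3 list of its stage. These libraries also held the Sox9 and Insl3 peaks given above. The part of list length and of such other cells in the widths was not tested. With the Abcam antibody the Pdha2 peak was 1541, 1214 and 1275 bp wide from leptonema to early pachynema, and 3720 and 3967 bp in late pachynema and diplonema. In these last 2 lists it spanned the 5′ end and the whole gene.

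**Figure D2:**
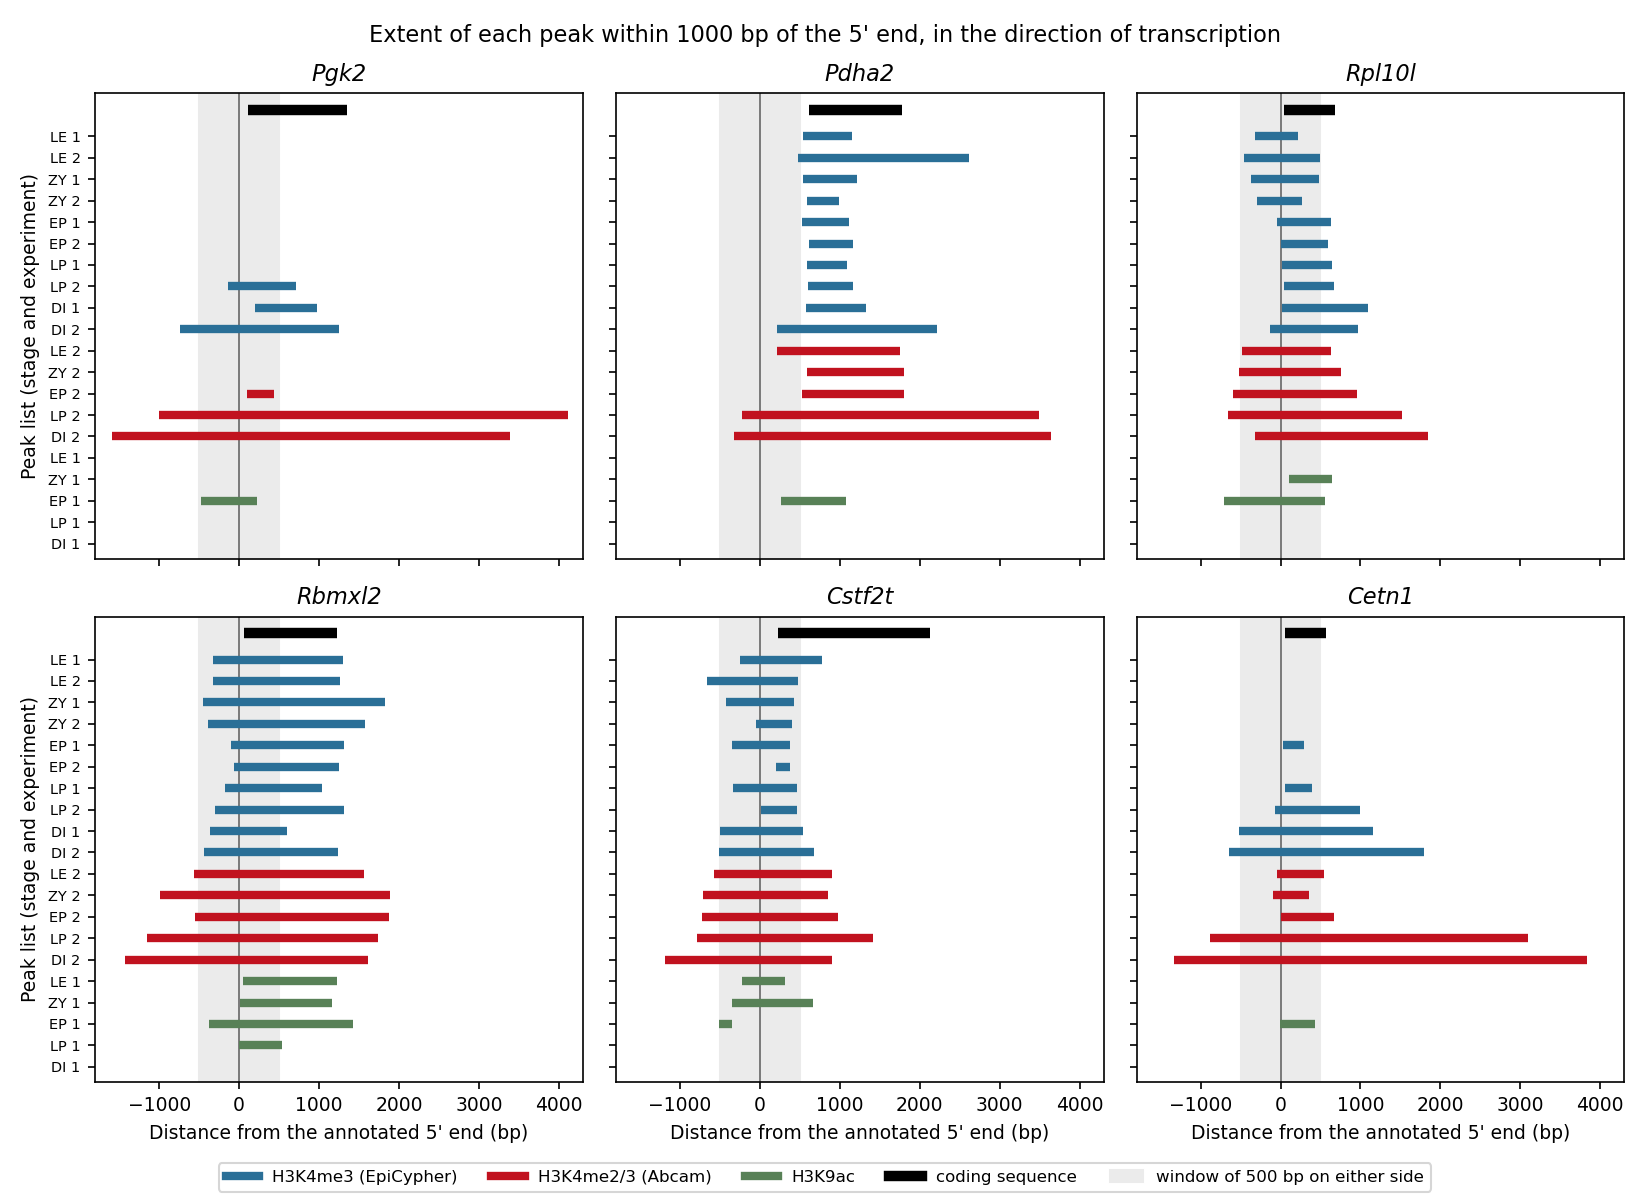
Extent of each peak found within 1000 bp of the 5′ end (horizontal bars, position in bp along the direction of transcription) for each retrocopy and list, coloured by antibody, with coding sequence in black and the 500-bp window in grey. The Pdha2 bars of all 15 H3K4 lists share the stretch from 618 to 990 bp in the coding sequence, from which the longer bars run out on both sides, and the Abcam bars of Pgk2, Pdha2 and Cetn1 are longest in late pachynema and diplonema.

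Rpl10l, Rbmxl2 and Cstf2t act in gene expression rather than in metabolism or the cytoskeleton. They were called in all 10 H3K4me3 lists, as were 18% of all genes, and in all 5 H3K4me2/3 lists, as were Cetn1 and 47.8% of all genes. Since they were called in every list, the test by stage had nothing to compare for them. With the 4883 widest peaks of each list only, Rbmxl2 was still called in 10 lists, and Rpl10l and Cstf2t in 7 each. Their widths still differed. Over the 10 H3K4me3 lists, the lowest, median and highest width was 543, 656 and 1107 bp for Rpl10l, 969, 1604 and 2280 bp for Rbmxl2, and 171, 830.5 and 1188 bp for Cstf2t.

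Rbmxl2 encodes hnRNP G-T, an RNA-binding protein that controls splicing in meiosis, and lies at chr7:107209445-107210916 on the plus strand. Its H3K4me3 peaks measured 1627 and 1593 bp in leptonema, 2280 and 1961 bp in zygonema, 1414 and 1318 bp in early pachynema, 1207 and 1615 bp in late pachynema, and 969 and 1670 bp in diplonema. Zygonema was thus the widest stage in both experiments, at 2120.5 ± 226 bp (SD, n = 2), and its peaks ranked 63 of 7610 and 71 of 7420 genes with a peak within 1000 bp in their lists. The width averaged 1865 ± 323 bp (SD, n = 4) in leptonema and zygonema and 1366 ± 262 bp (SD, n = 6) later. The groups overlapped, and the difference did not pass after adjustment over the 3725 genes called in all 10 lists (two-sided exact permutation test, p = 0.0286, adjusted p = 0.402).

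Rpl10l encodes a form of ribosomal protein L10, a component of the large subunit, and lies at chr12:66283379-66284401 on the minus strand. Its H3K4me3 width was 543 and 950 bp in leptonema, 843 and 558 bp in zygonema, 680 and 587 bp in early pachynema, 632 and 620 bp in late pachynema, and 1077 and 1107 bp in diplonema. What set the stages apart was the position of the peak. With the 5′ end as 0 and upstream positions negative, its upstream edge lay between -453 and -288 bp in the 4 leptonema and zygonema lists, and between -136 and 48 bp in the 6 later lists. Its downstream edge lay between 225 and 496 bp in the early lists and between 591 and 1093 bp in the later lists.

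Neither pair of Rpl10l ranges overlapped. The mean upstream edge was at -355.5 ± 72.2 bp (SD, n = 4) early and -17.2 ± 66.4 bp (SD, n = 6) later, a shift of 338 bp (two-sided exact permutation test, p = 0.00476, adjusted p = 0.113). The mean downstream edge was at 367 ± 140 bp (SD, n = 4) and 766 ± 211 bp (SD, n = 6), a shift of 399 bp (two-sided exact permutation test, p = 0.00476, adjusted p = 0.166). Neither passed over the 3725 genes, and 5.61% and 4.08% of these genes had edges that moved downstream without overlap. Edges were examined after the data were seen. With the Abcam antibody the Rpl10l peak began at -481, -515, -597, -658 and -325 bp from leptonema to diplonema, with no such order of early and later stages. Its downstream edge there was at 632 and 756 bp in leptonema and zygonema and at 956, 1520 and 1845 bp later, in the same direction as for H3K4me3 and with 1 list a stage. Abcam peaks widened for genes in general, by a median ratio of 1.38 from early to late pachynema and 1.20 from leptonema to diplonema. The part of this widening in the downstream edge was not tested.

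Cstf2t encodes the testis form of a subunit of cleavage stimulation factor, which acts in mRNA polyadenylation. It lies at chr19:31082837-31087069 on the plus strand, within Prkg1, a gene of the opposite strand. Its H3K4me3 peaks measured 1020 and 1150 bp in leptonema, 851 and 459 bp in zygonema, 720 and 171 bp in early pachynema, 810 and 449 bp in late pachynema, and 1040 and 1188 bp in diplonema. Experiment 1 gave the wider peak in the 3 stages from zygonema to late pachynema and the narrower one in leptonema and diplonema. The mean was 870 ± 300 bp (SD, n = 4) early and 730 ± 375 bp (SD, n = 6) later, within the spread of the lists (two-sided exact permutation test, p = 0.543, adjusted p = 0.859).

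In H3K4me2/3, 5, 4, 5, 6 and 6 of the 6 retrocopies were called from leptonema to diplonema, where 64.7%, 59.4%, 53.7%, 55.4% and 53.3% of all genes were called. The number called was highest in the later lists while the share of all genes was highest in leptonema. Each stage had 1 list, so these values have no replicate check. The largest differences were in width. The ratio of late to early pachynema width was 15.6 for Pgk2, 5.96 for Cetn1 and 2.92 for Pdha2, and it was 1.40 for Rpl10l, 1.30 for Cstf2t and 1.19 for Rbmxl2. Over the 10628 genes with a peak within 1000 bp in both lists the median ratio was 1.38, so peaks were wider in late pachynema for genes in general and the last 3 retrocopies lay near the middle. Pgk2, Cetn1 and Pdha2 lay at percentiles 99.9, 98.8 and 94.0 of these genes.

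From leptonema to diplonema the H3K4me2/3 width ratio was 8.78 for Cetn1 and 2.57 for Pdha2, with 1.95 for Rpl10l, 1.43 for Rbmxl2, 1.42 for Cstf2t and a median of 1.20 over 10863 genes. Absence in leptonema and zygonema with a peak in each later list was found for Pgk2 alone among the retrocopies, and for 0.338% of all genes. Pgk2 had no leptonema peak from which a ratio could be formed. In experiment 2, where both antibodies were used on each stage, the Abcam list held every retrocopy that the EpiCypher list held, as it did for 99.7%, 99.6%, 99.9%, 99.5% and 99.1% of all genes called with EpiCypher from leptonema to diplonema. It added Cetn1 in leptonema and zygonema, Pgk2 and Cetn1 in early pachynema, and Pdha2 in late pachynema. For early pachynema the authors report a different purity and amount of chromatin for the EpiCypher and Abcam libraries. That pair is thus not matched in preparation, while the pairs of the other stages have equal values. At Pdha2 in leptonema the Abcam peak was narrower than the EpiCypher one (1541 against 2140 bp), a ratio of 0.720 where the median over genes was 1.83.

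In H3K9ac, early pachynema was the list in which all 6 retrocopies were called, with 35.3% of all genes. The Pdha2 peak there began at 269 bp and the Cstf2t peak ended at -347 bp, so neither was called within 250 bp. The number called was 2 in leptonema (14.8% of genes), 3 in zygonema (41.1%), 1 in late pachynema (8.28%) and 0 in diplonema (1.99%). The zygonema list was longer than that of early pachynema (16003 against 7744 peaks) and held fewer of the retrocopies. The late pachynema and diplonema lists are short for all genes, so a lack of H3K9ac at the retrocopies and the shortness of these lists cannot be told apart.

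Pgk2 (698 bp), Pdha2 (813 bp) and Cetn1 (441 bp) had their H3K9ac peak in early pachynema and at no other stage, a pattern shared by 1.81% of all genes. At Pgk2 this peak reached from -474 to 223 bp relative to the 5′ end, in an experiment in which the same stage had no H3K4me3 peak there. At Pdha2 it reached from 269 to 1081 bp downstream and thus overlapped the coding stretch of the H3K4 peaks. Rbmxl2 had an H3K9ac peak from leptonema to late pachynema (1174, 1157, 1801 and 533 bp), widest in early pachynema. Rpl10l was called in zygonema (542 bp) and early pachynema (1269 bp). Cstf2t was called in leptonema (539 bp), zygonema (1020 bp) and early pachynema, there with a peak of 170 bp that ended at -347 bp.

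**Figure D3:**
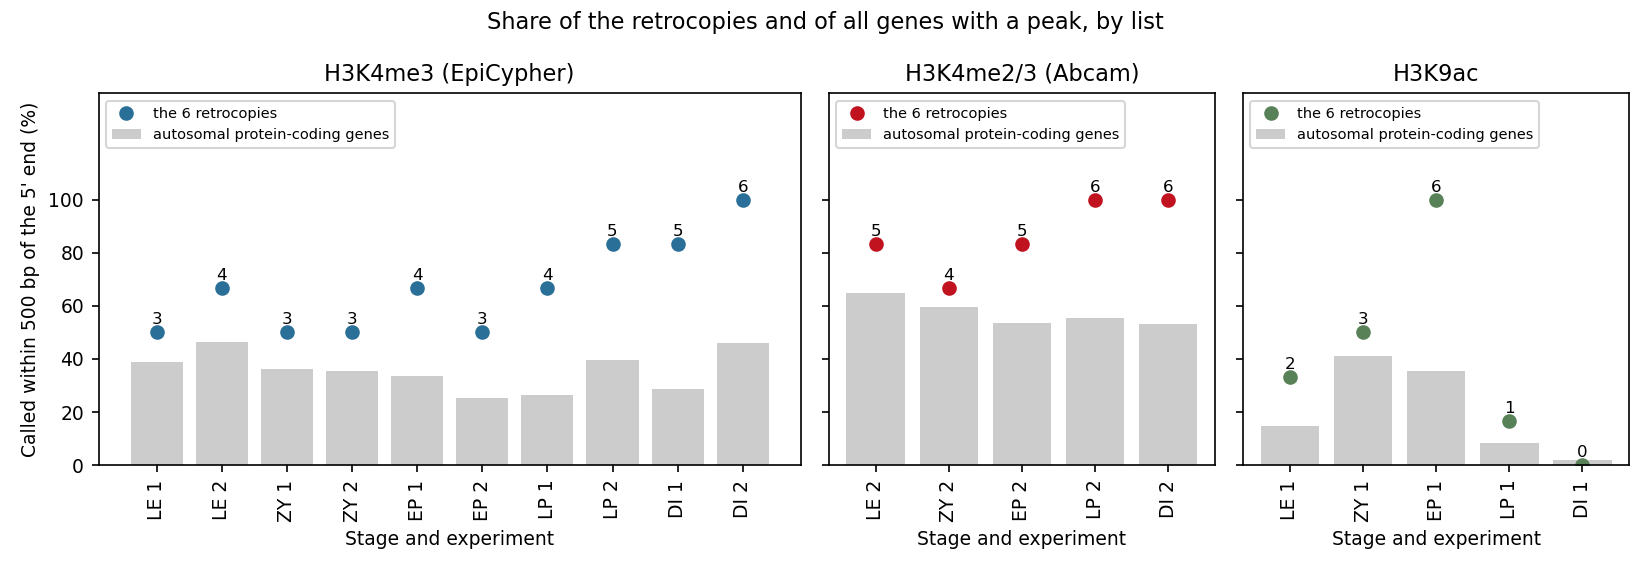
Share in percent of the 6 retrocopies (points, with the number called above each) and of all 20698 autosomal protein-coding genes (grey bars) with a peak within 500 bp of the 5′ end, by antibody, stage and experiment. All 6 retrocopies are called in diplonema of experiment 2 for H3K4me3, in late pachynema and diplonema for H3K4me2/3, and in early pachynema for H3K9ac, where 46%, 55.4%, 53.3% and 35.3% of genes are called.

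The order of first calls by antibody was as follows. Cetn1 was first called by H3K4me2/3 in leptonema, by H3K4me3 in early pachynema (both experiments from late pachynema) and by H3K9ac in early pachynema. Its Abcam peaks from leptonema to early pachynema (589, 450 and 669 bp) were below the median widths of their lists (870, 836 and 864 bp). With only the peaks at or above the median width of each list, Cetn1 kept 2 of 5 H3K4me2/3 calls, the first in late pachynema. The Abcam lists were also longer (17561 or more peaks) than the EpiCypher lists (15699 or fewer). Pgk2 was first called by H3K4me2/3 and H3K9ac in early pachynema and by H3K4me3 in late pachynema (both experiments in diplonema). Rbmxl2 and Cstf2t were called by all 3 from leptonema, and Rpl10l by both H3K4 antibodies from leptonema and by H3K9ac from zygonema. Within 1000 bp, Pdha2 was called by both H3K4 antibodies from leptonema and by H3K9ac in early pachynema. The calls of the replicate experiments differed for 1, 0, 1, 1 and 1 of the 6 retrocopies from leptonema to diplonema, and for 8.84%, 6.82%, 8.92%, 14.6% and 17.5% of all genes.

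Retrocopies can share sequence with their parents, and reads from shared sequence align to several places. How such reads were treated is stated for the authors' signal values and not for the lists. Words of 32 bases within 500 bp of the 5′ end were searched in the whole mm10 genome. None of the words of Pgk2, Pdha2, Cstf2t or Cetn1 occurred elsewhere, and 0.826% of those of Rbmxl2 did. Rpl10l was the exception, with 25.6% of its words in this window found elsewhere, 7.33% on chromosome X. The words on X came from the 500 bp upstream (15.1% of the words there) and none from its coding sequence. Of the coding words 36.2% were found elsewhere, and the part of such words in the positions of its peaks was not tested. No other protein-coding start site lay within 1000 bp of any of the 6 retrocopies.

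The promoters were compared in the RefSeq windows of 300 bases, from 250 before to 50 after the start, which were at hand for 5 of the 6 retrocopies. Rbmxl2 and Cstf2t, called in every H3K4 list, had 29 and 26 CpG dinucleotides, at percentiles 82.6 and 76.9 of 19167 promoters of autosomal protein-coding genes. Rpl10l, also called in every H3K4 list, had 13, at percentile 47.5. Pgk2 and Pdha2 had 4 each, at percentile 24.2, and Pdha2 had a G and C content of 29.7%, at percentile 0.863. The coding stretch of Pdha2 on which the peaks lay had 15 CpG and a G and C content of 56.7%.

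Among all genes, the median number of CpG was 25 in promoters of genes called in all 10 H3K4me3 lists, 15 where the calls were in the 3 later stages only, and 4 where no list had a call. Rpl10l lay below the lower quartile (18) of the first of these groups and Pgk2 below the lower quartile (8) of the second. Short words tied to transcription factors were looked up in the same windows on both strands. TGACGTCA, the full cAMP response element, was in none of the 5 windows and in 2.36% of all promoters. GGGCGG, the GC box, was found once in Rpl10l, once in Rbmxl2 and at 2 places in Cstf2t (48.3% of all promoters hold it). CCAAT was found at 2 places in Pgk2 and once each in Rbmxl2 and Cstf2t (37.5%), and TATAAA once in Pdha2 (12.1%).

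**Figure D4:**
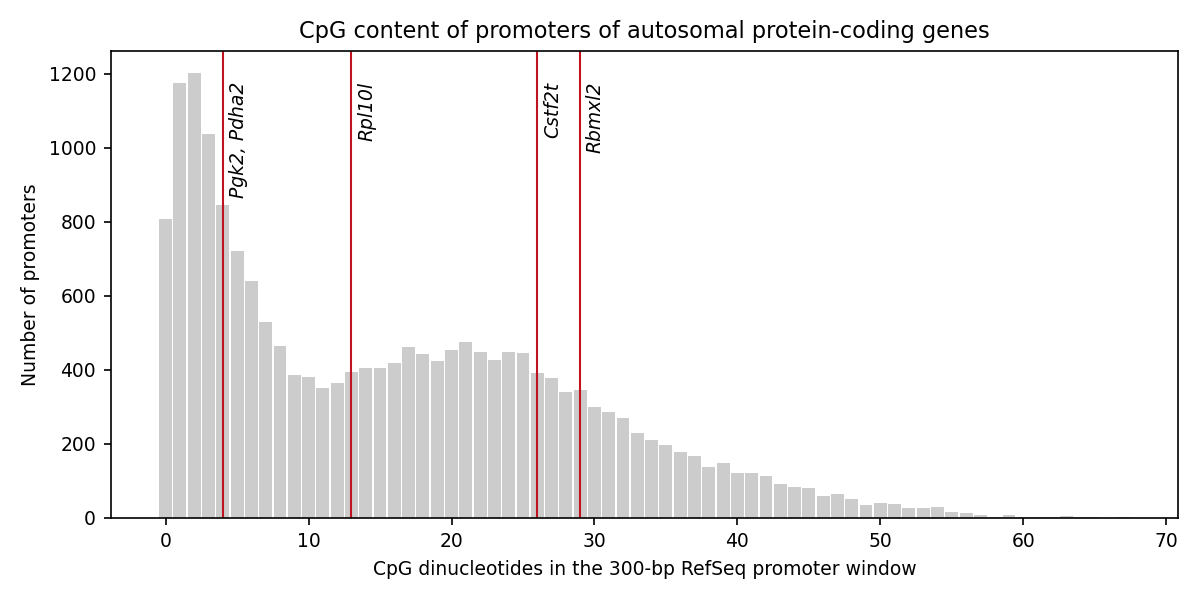
Number of promoters (vertical axis) by the number of CpG dinucleotides in the 300-bp RefSeq window (horizontal axis) for 19167 promoters of autosomal protein-coding genes, with red lines at the retrocopies. Pgk2 and Pdha2 (4 CpG) sit in the low mode of the distribution, Rpl10l (13) between the modes, and Cstf2t (26) and Rbmxl2 (29) in the high mode.

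A further 16 autosomal retrocopies of X-linked genes were examined in the same way. Of these, 4 (Utp14b, Naa11, Rbmxl1 and Rpl36al) were called in all 10 H3K4me3 lists, 2 (G6pd2 and Ubl4b) in none, and 5 only in the 3 later stages. Among all 20698 genes, 18% were called in all 10 lists and 9494 genes in none. Calls only in the later stages were found for 6.02% and only in the early stages for 6.51%. None of the 16 had calls only in the early stages, which is near the share of all genes for a list of this length. In H3K4me2/3, 12 of the 16 were called at all 5 stages, as were 47.8% of all genes. The start sites of Utp14b, Rbmxl1 and Rpl36al have that of another protein-coding gene within 1000 bp, so peaks there cannot be assigned to the retrocopy.

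The 5 late ones were Timm8a2, Gk2, Prps1l1, Gykl1 and Fam50b. Timm8a2, a copy of a gene for a chaperone of mitochondrial protein import, had peaks of 312, 154, 347, 361, 205 and 373 bp in the 6 later lists and none in the 4 early lists (two-sided exact permutation test, p = 0.00476, adjusted p = 0.249). Gk2, which encodes a glycerol kinase, had H3K4me3 peaks of 210 bp in early pachynema of experiment 1, 504 and 856 bp in late pachynema and 1110 and 2120 bp in diplonema, and Prps1l1, a phosphoribosyl pyrophosphate synthetase, was called in the same 5 lists (314 to 1828 bp). These were the lists in which Cetn1 was called. Gykl1, a relative of Gk2, and Fam50b were called in both diplonema lists only. With the Abcam antibody, Gk2 had peaks of 1443, 252, 1149, 2811 and 4250 bp from leptonema to diplonema. Timm8a2 and Prps1l1 also had Abcam peaks in leptonema (1007 and 1027 bp) and zygonema (851 and 1480 bp), and Gykl1 had one from zygonema (616 bp). Fam50b had its only Abcam peaks in late pachynema and diplonema (1601 and 2553 bp).

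**Figure D5:**
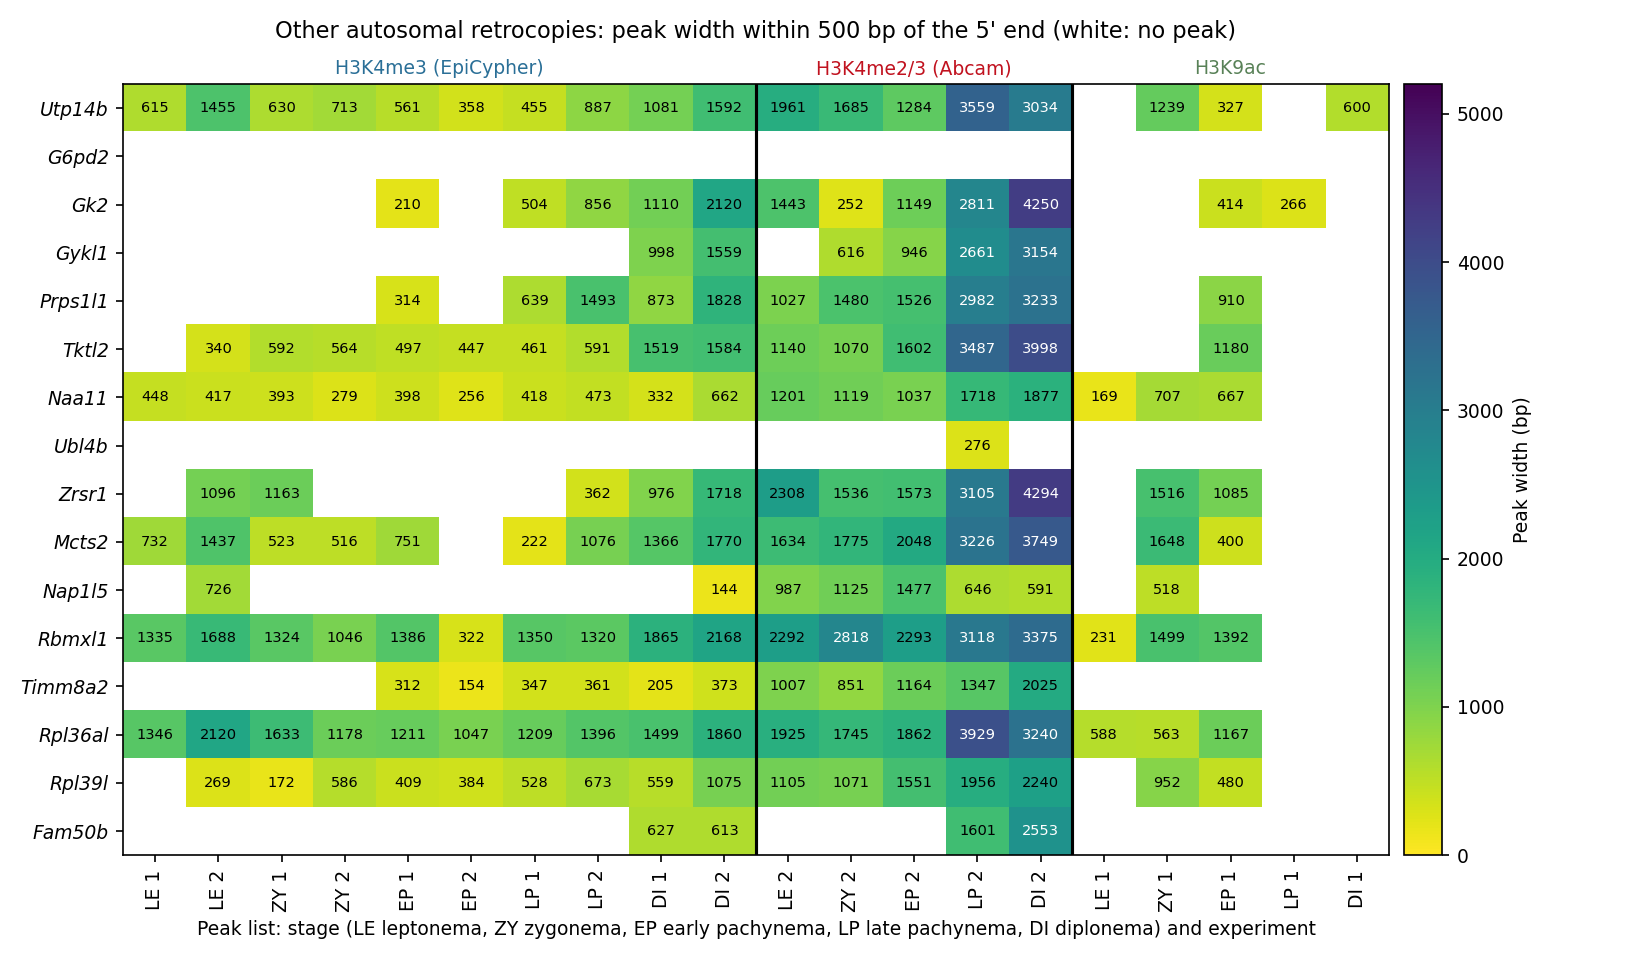
Peak width in bp (number and colour) at 16 other autosomal retrocopies of X-linked genes (rows) in each of the 20 lists (columns, by antibody, stage and experiment), with white where no peak lay within 500 bp of the 5′ end. Timm8a2, Gk2, Prps1l1, Gykl1 and Fam50b are white in the 4 leptonema and zygonema lists of H3K4me3, and Utp14b, Naa11, Rbmxl1 and Rpl36al are filled in all 10.

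The proteins that work beside those of the retrocopies come mostly from ordinary autosomal genes, and 21 of these were examined. In H3K4me3, 12 were called in all 10 lists, 3 (Pdk4, Gapdhs and Cstf1) in none and 2 (Pdk2 and Pgam2) in the later stages only, and 16 of the 21 were called at all 5 stages with the Abcam antibody. Of all 20698 genes, 18% were called in all 10 H3K4me3 lists, 9494 genes in none and 6.02% in the later stages only. With the Abcam antibody 47.8% of all genes were called at all 5 stages. Of the pyruvate dehydrogenase complex, Pdhb, which encodes the E1 beta subunit that pairs with the product of Pdha2, and Dlat, Dld and Pdhx were called in all 10 lists. The kinases that inhibit the complex differed, since Pdk1 was called in 4 of 4 early and 1 of 6 later lists and Pdk2 in 0 of 4 and 3 of 6, neither of which passed the test (two-sided exact permutation test, adjusted p = 0.621 and 0.675). Next to phosphoglycerate kinase in glycolysis, Pgam1 was called in all 10 lists, Pgam2 in 0 of 4 early and 3 of 6 later lists, as Pgk2 was, and the sperm-type Gapdhs in none.

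For the ribosomal, splicing and centriole partners the H3K4me3 calls were complete, and of the polyadenylation partners Cstf3 was called and Cstf1 was not. Nmd3 and Lsg1, which act when L10 is loaded on the large ribosomal subunit, Tra2a and Tra2b, splicing factors that bind proteins of the Rbmx family, Cstf3, and the centrins Cetn3 and Cetn4 were each called in all 10 H3K4me3 lists. In leptonema and zygonema, Cetn3 and Cetn4 were thus called in 4 of 4 lists and Cetn1 in 0 of 4. Pdhx, Cetn4 and Cstf1 have the start site of another protein-coding gene within 1000 bp.

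Genes with the most similar series of widths over the 20 lists were looked up for each retrocopy, by the Pearson correlation of width with 0 bp for no peak. The lists share libraries, antibodies and depth, so these values are descriptions. Nearest to Pgk2 were Gm5142 (r = 0.993), 1700018F24Rik (0.993) and 4921524L21Rik (0.991), and nearest to Cetn1 were 4930544G11Rik (0.990), Tomm20l (0.989) and Cmtm2b (0.989). Each of these 6 genes was called in 3 of the 10 H3K4me3 lists. Rpl10l was nearest to Haus3, Poln and Stam (0.976, 0.976 and 0.974), Rbmxl2 to Qk (0.944), Cstf2t to Vps13a (0.961) and Pdha2 to Sox1 (0.944). The exact series of calls over the 20 lists was shared with 7 other genes for Pgk2, 17 for Cetn1, 0 for Pdha2, 1108 for Rpl10l, 695 for Rbmxl2 and 1086 for Cstf2t. Widths and calls here are those within 500 bp of the 5′ end. The 8 H3K4me3 lists in which the Pdha2 peak began beyond that window thus entered as no peak, and its values here depend on the window.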

How the data were processed

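Peak lists were analysed from 20 of 51 samples, and the other 31 samples were not used here. Per the labels and methods, the authors aligned reads to mm10 with BWA mem 0.7.12 and called peaks in each library with MACS2 2.1.2 (broad mode, input of the same stage), as stated for H3K4me3. For H3K9ac the control is not given in the sources used here, and the labels name an anti-H3K4me3 antibody for these libraries although their titles read H3K9ac and the methods list the same catalogue item as anti-H3K9ac. The deposited columns are peak coordinates, so only calls and widths were used.

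Calls and widest peaks at protein-coding 5′ ends (GENCODE M21, autosomes) were computed in Python 3.11.15 with numpy 2.4.6. Early (leptonema, zygonema) and later H3K4me3 lists were compared for every gene called in some but not all lists by a two-sided exact permutation test with Benjamini-Hochberg adjustment. The test was run on simulated lists of 5965 genes, with 200 of 200 implanted late genes recovered. That run checks the calculation only and does not show that a late gene can pass adjustment in the real lists. There Timm8a2, called in every later H3K4me3 list and in no early one, had an adjusted p of 0.249 (two-sided exact permutation test). The labels do not say that the libraries came from separate animals, so p-values measure only the spread between them.

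The retrocopies, the other lists and the rule for named genes (members, parents, listed relatives, and the 3 genes most like each member) were chosen with earlier results of these data known. Alternatives were other windows, a larger overlap, all transcripts, wider peaks, equal list sizes, each library left out, a replicate block and width. A gene body window and the edge tests were added after the data were seen.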

Additional observations from a re-analysis of the deposited data

How the results depend on the processing

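The H3K9ac total of 12 of 30 retrocopy calls was 10 within 250 bp, 11 with an overlap of 200 bp, 9 with the wider peaks and 3 with equal list sizes, the 516 widest peaks of each list. The last 3 calls were at Rbmxl2. The H3K4me3 total of 40 of 60 ranged from 33 (equal list sizes) to 48 (within 1000 bp, and the gene body window), and the H3K4me2/3 total of 26 of 30 from 22 (wider peaks) to 28. Pgk2 kept 3 of 10 H3K4me3 calls in every window and subset, and Cetn1 had 3 with the wider peaks and 4 with equal list sizes instead of 5. In H3K4me2/3 Cetn1 had 2 and 3 of 5 calls in these settings. With equal list sizes Rpl10l and Cstf2t were called in 7 of 10 H3K4me3 lists, and the later minus early share for Rpl10l was 75 points instead of 0 (two-sided exact permutation test, p = 0.0333, adjusted p = 0.381). For Pdha2 the later minus early share of calls, -8.33 points, was 16.7 points within 250 bp, with an overlap of 200 bp, and without leptonema replicate 2, from -25 to 16.7 points with each library left out, and 0 points within 1000 bp, and no adjusted p was under 0.05. Median peak widths moved by less than the spread between experiments (344 bp).

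The splits of the lists are few. The smallest p they allow was 0.00476 with all lists and 0.00794 or 0.0119 with 1 left out (two-sided exact permutation test). An adjusted p under 0.05 would need many genes at that smallest p, so a count of 0 does not by itself show stability. Within this limit, no gene passed an adjusted p of 0.05 by stage under any alternative, leaving out each library in turn included, where the count was 0 throughout. By peak width in place of the call it was also 0, with 1909 of 11204 genes at an unadjusted p under 0.05, against 530 of 7479 by call, a different measure over fewer genes. With a replicate block it was 0 of 7479 genes, the smallest p being 0.01 (exact permutation within experiments, 100 splits). The titles give the number as that of an experiment. The correlation of deviations between stages ran from -0.205 to 0.454 (late pachynema with diplonema) and was above 0.1 in 3 of 10 pairs of stages, so a shared deviation was seen in some pairs and not in all. The block limits which splits are made and cannot change a call. With it, the p of Cetn1 was 0.06 (exact permutation within experiments, adjusted p = 0.626), against 0.0476 without it (two-sided exact permutation test). Lists of positions without depth limit every statement to what was called: a start site without a peak may carry the mark below the caller's threshold, and a longer list can hold more start sites for that reason.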
